A study of Homo sapiens with 12 samples.

Results

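The 10 genes described here encode the cyclins and kinases that drive DNA replication and mitosis, with the phosphatases that switch those kinases on. They were chosen by name as the E, A and B cyclins CCNE1, CCNE2, CCNA2, CCNB1 and CCNB2, the kinases CDK1 and CDK2, and the phosphatases CDC25A, CDC25B and CDC25C. All 10 were found among the 19460 genes of the RNA table, and all 10 passed the filter on low values. They were measured in T-47D, a human luminal breast cancer cell line that carries the oestrogen receptor, with the label giving its genotype as WT. The treated cultures received 1 µM palbociclib, which blocks the cyclin D partners CDK4 and CDK6, for 24 h, and the controls received the solvent DMSO for the same time. Each treatment had 3 replicates for RNA sequencing of poly(A) RNA and 3 biological replicates for ATAC-seq, an assay that reads open chromatin through insertions of the transposase Tn5. Both arms are 1 cell line at 1 dose and 1 time. The RNA labels do not say that the replicates were separate cultures, so the RNA p-values measure only the spread between these samples, which may be technical.

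A cyclin-dependent kinase is active only when bound to a cyclin. In the textbook order of the cell cycle, cyclin E with CDK2 acts at the entry to S phase, cyclin A with CDK2 during S phase and with CDK1 later, and cyclin B with CDK1 at the entry to mitosis. The kinases WEE1 and PKMYT1 hold CDK1 and CDK2 inactive by phosphorylation, and the CDC25 phosphatases remove those phosphates. Much of the transcription of these genes is tied to the cycle itself, through E2F factors at the start of S phase and through the MYBL2, FOXM1 and DREAM regulators towards mitosis. Palbociclib acts upstream of this sequence, where CDK4 and CDK6 phosphorylate the retinoblastoma protein.

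RNA levels are FPKM, fragments scaled by transcript length and library depth, as the authors computed them, so levels of different genes can be compared per length. The total depth of the RNA libraries is not given in the sources used here. The authors' deposited table gives a mean normalized count over libraries of 466 for CCNE1, the lowest of the 10, and of 11640 for CCNB1, the highest. The ATAC libraries held 12.8 to 18.3 M reads in 38121 peaks. All 10 luminal markers, among them ESR1, GATA3 and KRT8, were at or above 0.5 FPKM, and their summed level was 5599 to 6125 FPKM in DMSO and 7522 to 8304 FPKM with palbociclib. Of the markers of other cells, 1 of 5 basal (ACTA2), 1 of 5 fibroblast (COL1A1) and 0 of 4 endothelial genes reached 0.5 FPKM. Only 3 of the 5 basal, 3 of the 5 fibroblast and 0 of the 4 endothelial genes had values to read. The summed fibroblast level was 23.8 to 25.1 FPKM in DMSO and 24.6 to 26.8 FPKM with palbociclib.

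All 10 genes were lower with palbociclib. Changes are log2 changes of FPKM + 1, tested with limma over 15869 genes with a mean of at least 0.5 FPKM, and a gene is called at a Benjamini-Hochberg adjusted p under 0.05. By this rule 10 of the 10 genes fell, where 22.9% of all genes tested fell. Every palbociclib library lay below every DMSO library in all 10, where this held for 28.2% of all genes tested. The median log2 change of the 10 was -2.61, beside 0.00 for all genes tested. The drop ranged from 2.39-fold for CCNE1 to 19.7-fold for CCNE2 in mean FPKM. In bulk RNA, a smaller share of cells in the phases that express these genes and less RNA per cell cannot be told apart.

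**Figure D1:**
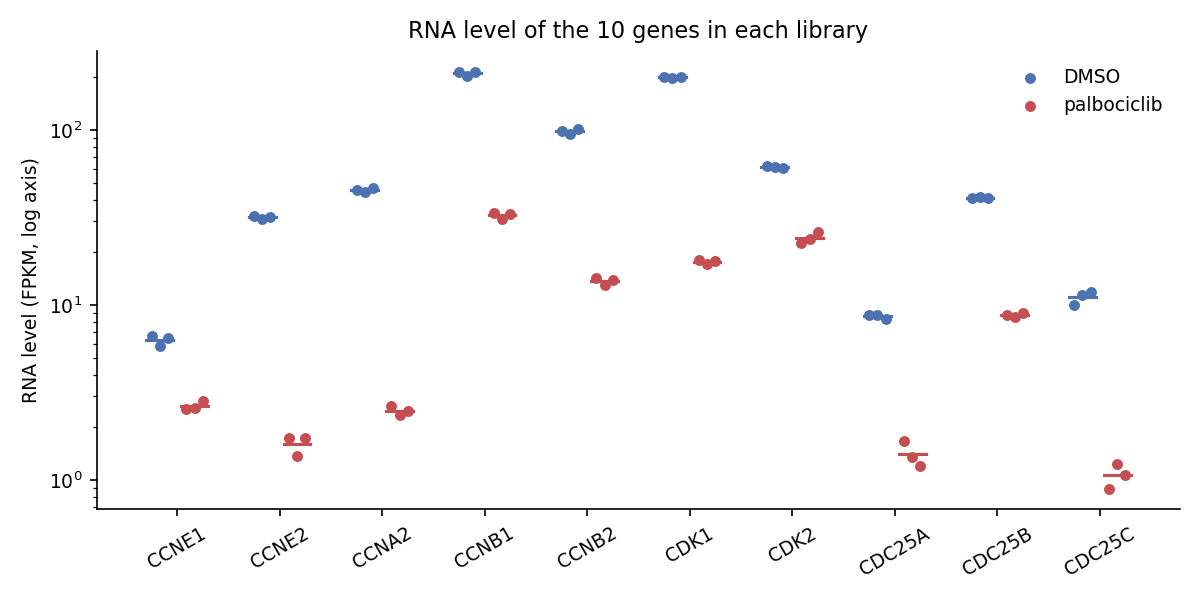
RNA level of the 10 genes in each library, in FPKM on a log axis. Each point is 1 of 3 DMSO or 3 palbociclib libraries and the bar is the group mean. The palbociclib points lie below the DMSO points for every gene, with the narrowest gap at CCNE1 and CDK2.

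The E cyclins, which activate CDK2 at the start of S phase, fell by very different amounts. CCNE1 (ENSG00000105173, chr19:29811991-29824312 in GRCh38.p14, plus strand) measured 6.62, 5.87 and 6.47 FPKM in DMSO and 2.54, 2.57 and 2.83 FPKM with palbociclib. The groups did not overlap, and the palbociclib libraries kept 41.9% ± 2.5 (SD, n = 3) of the DMSO mean. This was the smallest drop of the 10, at a log2 change of -1.004 (SE 0.07, limma adjusted p 8.38e-06), the 486th largest fall of all genes tested.

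CCNE2 (ENSG00000175305, chr8:94880224-94896693, minus strand) measured 32.3, 31.2 and 32.0 FPKM in DMSO and 1.73, 1.37 and 1.74 FPKM with palbociclib. Every treated library was far below every control, at 5.08% ± 0.66 (SD, n = 3) of the DMSO mean. The log2 change was -3.65 (SE 0.07, limma adjusted p 1.75e-09), the 11th largest fall of all genes tested. In DMSO the level of CCNE2 was 5.04 times that of CCNE1, and with palbociclib it was 0.607 times that of CCNE1. CCNE2 thus made up 83.4% ± 0.64 of the cyclin E FPKM in DMSO and 37.8% ± 2.8 with the drug (SD, n = 3), so that CCNE1 had the higher level in all 3 treated libraries. The summed cyclin E level was 38.1 ± 0.97 FPKM in DMSO and 4.26 ± 0.32 FPKM with palbociclib (SD, n = 3).

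CCNA2 (ENSG00000145386, chr4:121816444-121823883, minus strand), the A cyclin of S phase and G2, stood at 45.3, 44.2 and 46.9 FPKM in DMSO and at 2.65, 2.35 and 2.47 FPKM with palbociclib. The groups were widely apart, with 5.48% ± 0.33 (SD, n = 3) of the DMSO level left. CCNA2 had the largest limma log2 change of the 10, -3.74 (SE 0.05, limma adjusted p 4.70e-10), and the 9th largest fall of all genes tested. By plain FPKM ratio CCNE2 was the larger of this pair, since adding 1 FPKM moves a log2 change more where the treated level is lower. With 0.1 FPKM added, limma gave -4.225 for CCNE2 and -4.138 for CCNA2. The ranks of falls given here are those with 1 FPKM added.

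The B cyclins, which bring CDK1 to mitosis, fell nearly in parallel. CCNB1 (ENSG00000134057, chr5:69167150-69178245, plus strand) had the highest level of the 10 in DMSO, 216, 204.8 and 215 FPKM, and measured 33.5, 30.9 and 33.0 FPKM with palbociclib. Its log2 change was -2.67 (SE 0.04, limma adjusted p 6.00e-10), and 15.3% ± 0.67 (SD, n = 3) of the DMSO level remained, with no overlap between the groups. CCNB1 had the highest level of the 10 with palbociclib too.

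CCNB2 (ENSG00000157456, chr15:59105146-59125045, plus strand), whose product is found mainly at the Golgi, measured 99.0, 95.3 and 102 FPKM in DMSO. With palbociclib it measured 14.2, 13.1 and 13.9 FPKM, none of them near the controls. The log2 change was -2.76 (SE 0.04, limma adjusted p 7.22e-10) with 13.9% ± 0.61 (SD, n = 3) of the DMSO level left. CCNB2 made up 31.8% ± 0.36 of the cyclin B FPKM in DMSO and 29.7% ± 0.09 with the drug (SD, n = 3), a small difference in which the libraries still did not overlap. The summed cyclin B level was 310.4 ± 8.9 FPKM in DMSO and 46.2 ± 2.0 FPKM with palbociclib (SD, n = 3).

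Of the kinases, CDK1 fell much further than CDK2. CDK1 (ENSG00000170312, chr10:60778331-60794852, plus strand), the kinase of mitosis, measured 200.2, 198 and 201 FPKM in DMSO and 18.1, 17.04 and 17.9 FPKM with palbociclib. Both groups were tight and far apart, and 8.84% ± 0.28 (SD, n = 3) of the DMSO level was left. The log2 change was -3.43 (SE 0.03, limma adjusted p 3.29e-10).

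CDK2 (ENSG00000123374, chr12:55966830-55972789, plus strand), the partner of cyclins E and A, measured 62.3, 61.2 and 60.5 FPKM in DMSO and 22.6, 23.7 and 26.2 FPKM with palbociclib. The groups did not overlap, but 39.4% ± 2.9 (SD, n = 3) of the level remained, close to the share kept by CCNE1. Its log2 change was -1.31 (SE 0.05, limma adjusted p 2.24e-07). CDK2 was thus 23.5% ± 0.31 of the CDK1 and CDK2 FPKM in DMSO and 57.7% ± 1.9 with palbociclib (SD, n = 3). CDK1 had the higher level in all 3 DMSO libraries and CDK2 in all 3 treated libraries.

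**Figure D2:**
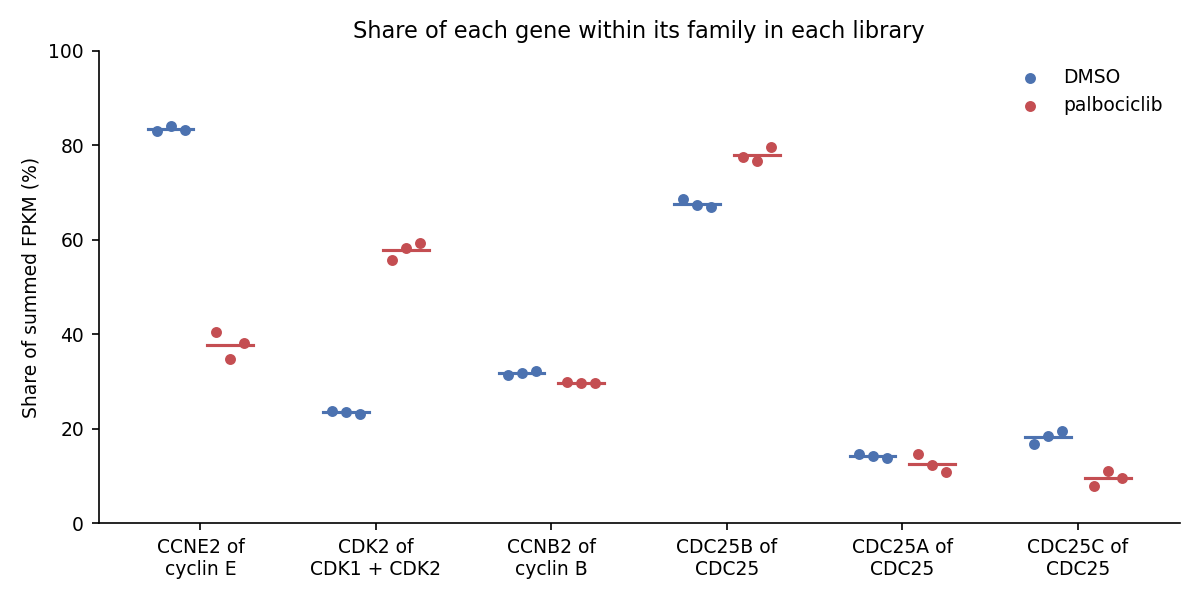
Share of each gene in the summed FPKM of its family, in percent, per library, with group means as bars (DMSO and palbociclib, 3 libraries each). CCNE2 goes from 83.4% to 37.8% of cyclin E and CDK2 from 23.5% to 57.7% of CDK1 and CDK2, while the groups overlap for CDC25A.

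The CDC25 phosphatases all fell, CDC25C the furthest. CDC25A (ENSG00000164045, chr3:48157146-48188417, minus strand), which acts at the entry to S phase and again at mitosis, measured 8.72, 8.75 and 8.33 FPKM in DMSO and 1.66, 1.35 and 1.21 FPKM with palbociclib. The treated libraries were all below the controls and kept 16.4% ± 2.7 (SD, n = 3) of their mean. The log2 change was -2.0 (SE 0.08, limma adjusted p 2.51e-07).

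CDC25B (ENSG00000101224, chr20:3786951-3806115, plus strand), held to start CDK1 activation at the centrosome, was the most abundant of the family at 40.8, 41.7 and 40.7 FPKM in DMSO and 8.80, 8.48 and 8.95 FPKM with the drug. The groups did not overlap and 21.3% ± 0.57 (SD, n = 3) of the level was left. The log2 change was -2.11 (SE 0.04, limma adjusted p 1.86e-09).

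CDC25C (ENSG00000158402, chr5:138285265-138338355, minus strand), which amplifies CDK1 activation at mitotic entry, measured 9.94, 11.4 and 11.8 FPKM in DMSO and 0.893, 1.23 and 1.07 FPKM with palbociclib. It had the lowest level of the 10 in the treated cells, with 9.62% ± 1.5 (SD, n = 3) of the DMSO level left. The log2 change was -2.55 (SE 0.09, limma adjusted p 9.33e-08). The authors' deposited table gives a log2 change of -3.38 for CDC25C and of -2.62 for CDC25A, larger than the values with 1 FPKM added. With 0.1 FPKM added, limma gave -3.27 for CDC25C and -2.54 for CDC25A. CDC25B was 67.6% ± 0.90 of the CDC25 FPKM in DMSO and 78.0% ± 1.6 with palbociclib (SD, n = 3), while CDC25C went from 18.2% ± 1.4 to 9.50% ± 1.6. CDC25A was 14.2% ± 0.48 and 12.5% ± 1.9 (SD, n = 3), with overlapping libraries.

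**Figure D3:**
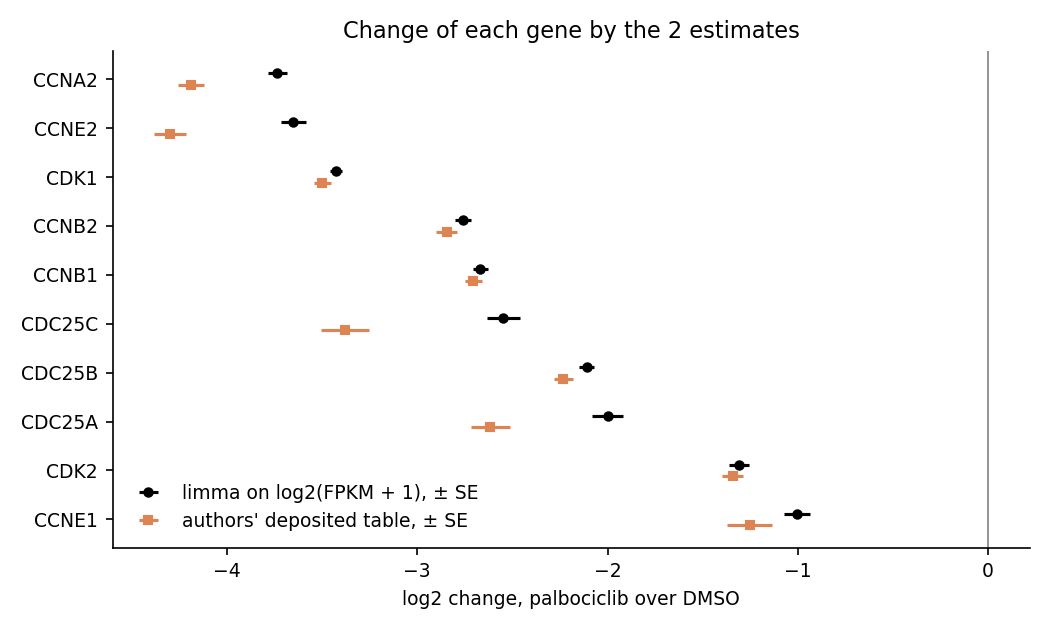
Log2 change of each gene, palbociclib over DMSO, by limma on log2(FPKM + 1) (black circles) and in the authors' deposited table (orange squares), both ± SE, over the same 6 libraries. The authors' deposited values lie further from 0 for every gene, most for CDC25C at -3.38 against -2.55.

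To ask whether 2 genes of the group changed by different amounts, the log2 ratio of their FPKM was taken within each library for 8 pairs. With 3 libraries against 3 the smallest two-sided exact permutation p is 0.1, and all 8 pairs reached it, with 0.1 after Benjamini-Hochberg adjustment too, so none passes 0.05. The log2 ratio of CCNE2 to CCNE1 was 2.33 ± 0.07 in DMSO and -0.72 ± 0.17 with palbociclib (SD, n = 3), a difference of -3.05 (SE 0.11). For CDK1 to CDK2 it was 1.70 ± 0.03 and -0.45 ± 0.11 (SD, n = 3), a difference of -2.15 (SE 0.07). CCNE1 stood at 0.139 times the level of CCNA2 in DMSO and at 1.06 times with palbociclib, a difference of 2.94 (SE 0.09) in the log2 ratio. With 1 FPKM added to both genes, these differences were -2.65, -2.12 and 2.73 in turn.

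CCNA2 against CCNB1 differed by -1.49 (SE 0.03) in the log2 ratio between treatments, or by -1.07 with 1 FPKM added to both genes. CDC25C against CDC25B differed by -1.16 (SE 0.17), or by -0.44 with 1 FPKM added to both genes. CCNB1 against CCNB2 differed least, by 0.14 (SE 0.01), or by 0.09 with 1 FPKM added to both genes, though the 3 treated ratios of 1.24, 1.24 and 1.25 lay above the DMSO ratios of 1.12, 1.104 and 1.08. CDC25A against CDC25C differed by 0.76 (SE 0.26), or by 0.55 with 1 FPKM added to both genes. CDC25A against CDC25B differed by -0.39 (SE 0.14), and with 1 FPKM added to both genes the sign turned, to 0.11 (exact permutation p 0.4), so these data give no direction for that pair.

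For each gene, the other gene with the most similar profile was found by the root mean square difference of the changes from the DMSO mean, over the 6 RNA libraries and 13810 candidates. CDK1 had the closest match, BIRC5 (survivin of the mitotic chromosomal passenger complex), at 0.02 on the log2 scale. PTTG1 (securin, which holds back sister chromatid separation) was nearest to CCNB1 at 0.03 and KIF4A (a chromosome-bound kinesin) to CCNB2 at 0.04. CCNE2 and CCNA2 shared 1 nearest gene, NUSAP1 (a spindle microtubule protein), at 0.08 and 0.07. HAT1 (a histone acetyltransferase) was nearest to CCNE1 at 0.04, and OAS3 (an interferon-induced synthetase) to CDK2 at 0.04. For the phosphatases they were NRM (the nuclear envelope protein nurim, CDC25A, 0.06), ATAD2 (a bromodomain ATPase, CDC25B, 0.04) and NCAPG2 (a condensin II subunit, CDC25C, 0.08). The measure rests on the size of the change, which 2 treatments set almost alone.

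The genes around the 10 were read from lists by role, and over all genes tested 22.9% fell and 20.9% rose. Among 9 tested regulators of CDK1 and CDK2, 7 fell, 0 rose and 2 did not pass, with a median log2 change of -0.92. The inhibitory kinase PKMYT1 fell from 44.4 ± 2.4 to 3.38 ± 0.51 FPKM (SD, n = 3, log2 -3.38, limma adjusted p 1.09e-08). CKS1B and CKS2, small subunits that bind the kinases, fell by 1.81 and 1.75 in log2 (limma adjusted p 1.12e-09 and 4.10e-09). The inhibitory kinase WEE1 (log2 -1.39, limma adjusted p 3.84e-08) and the inhibitors CDKN1A (log2 -0.92, limma adjusted p 5.80e-05) and CDKN1B (log2 -0.31, limma adjusted p 0.00129) fell too. Of the CDK-activating kinase, MNAT1 fell (log2 -0.14, limma adjusted p 0.047), while CDK7 (log2 0.11, limma adjusted p 0.128) and CCNH (log2 -0.15, limma adjusted p 0.0611) did not pass. The count of lower genes in this list ranged from 6 to 8 over the settings tried and was 6 in most of them. Of the 7 genes called lower, MNAT1 had the adjusted p closest to the threshold, so its call is the least secure.

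Of 13 tested genes that control CDC25, 8 fell, 1 rose and 4 did not pass, with a median of -0.15 (all genes tested: 22.9% lower, 20.9% higher). PLK1, the mitotic kinase that acts on CDC25C and WEE1, fell from 73.6 ± 3.2 to 6.05 ± 0.43 FPKM (SD, n = 3, log2 -3.40, limma adjusted p 9.31e-10). The checkpoint kinases CHEK1 and CHEK2, which mark CDC25 for inhibition or destruction, fell by 1.84 and 0.97 in log2 (limma adjusted p 5.29e-09 and 9.39e-06). MAPKAPK2, a stress kinase that also phosphorylates CDC25, rose from 39.9 ± 0.72 to 48.0 ± 0.99 FPKM (SD, n = 3, log2 0.26, limma adjusted p 0.000355). Counts of higher genes in this list reached 3 under quantile normalization and median centring.

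Of 12 genes that degrade cyclins or control that step, 9 fell, 1 rose and 2 did not pass, with a median of -0.76 (all genes tested: 22.9% lower, 20.9% higher). The ubiquitin conjugase UBE2C fell from 271.9 ± 2.4 to 22.6 ± 1.2 FPKM (SD, n = 3, log2 -3.54, limma adjusted p 3.90e-10). CDC20, the mitotic activator of the anaphase-promoting complex, fell by 2.94, and FBXO5, its inhibitor (EMI1), fell by 2.53 in log2 (limma adjusted p 1.57e-09 and 1.29e-08). SKP1, the adaptor of the SCF ligase, rose slightly (log2 0.10, limma adjusted p 0.0293), a call that was lost without DMSO replicate 1 or 2 and without any of the palbociclib replicates, when the count of higher genes was 0.

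Of 11 tested genes of mitotic entry, 9 fell, 0 rose and 2 did not pass, with a median of -1.78 (all genes tested: 22.9% lower, 20.9% higher). PLK1, given above, is in this list too. GTSE1, a microtubule-bound protein of G2 and mitosis, fell from 23.3 ± 0.05 to 1.46 ± 0.11 FPKM (SD, n = 3, log2 -3.30, limma adjusted p 9.90e-10). FOXM1, the transcription factor of G2 and mitosis genes, fell from 54.1 ± 1.5 to 5.00 ± 0.07 FPKM (SD, n = 3, log2 -3.20, limma adjusted p 4.11e-10).

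Of the remaining cyclins and kinases, 35 were tested, and 10 fell, 8 rose and 17 did not pass, with a median of -0.05. These shares are near those of all genes tested, 22.9% lower and 20.9% higher. CCNF, which despite its name is the F-box subunit of a ubiquitin ligase, fell by 1.55, CCND3 by 0.74 and CDK4, the target of the drug, by 0.44 in log2 (limma adjusted p 3.84e-08, 1.19e-05 and 0.000115). CCND1, the cyclin D partner of CDK4, rose from 96.8 ± 2.3 to 202.7 ± 3.5 FPKM (SD, n = 3, log2 1.06, limma adjusted p 2.89e-08). CDK18 rose too (log2 0.51, limma adjusted p 0.000412). The count of lower genes in this list was 5 after median centring.

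Of 23 regulators known to act at promoters of this kind, 15 fell, 1 rose and 7 did not pass, with a median of -0.56 (all genes tested: 22.9% lower, 20.9% higher). MYBL2, which joins the MuvB core at promoters of G2 and mitosis genes, fell from 68.9 ± 1.4 to 3.09 ± 0.18 FPKM (SD, n = 3, log2 -4.10, limma adjusted p 3.90e-10), further than any of the 10. E2F1 fell from 31.5 ± 1.0 to 3.34 ± 0.16 FPKM (SD, n = 3, log2 -2.91, limma adjusted p 1.33e-09). FOXM1, also in this list, is given above. E2F5 rose (log2 0.21, limma adjusted p 0.00385).

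**Figure D4:**
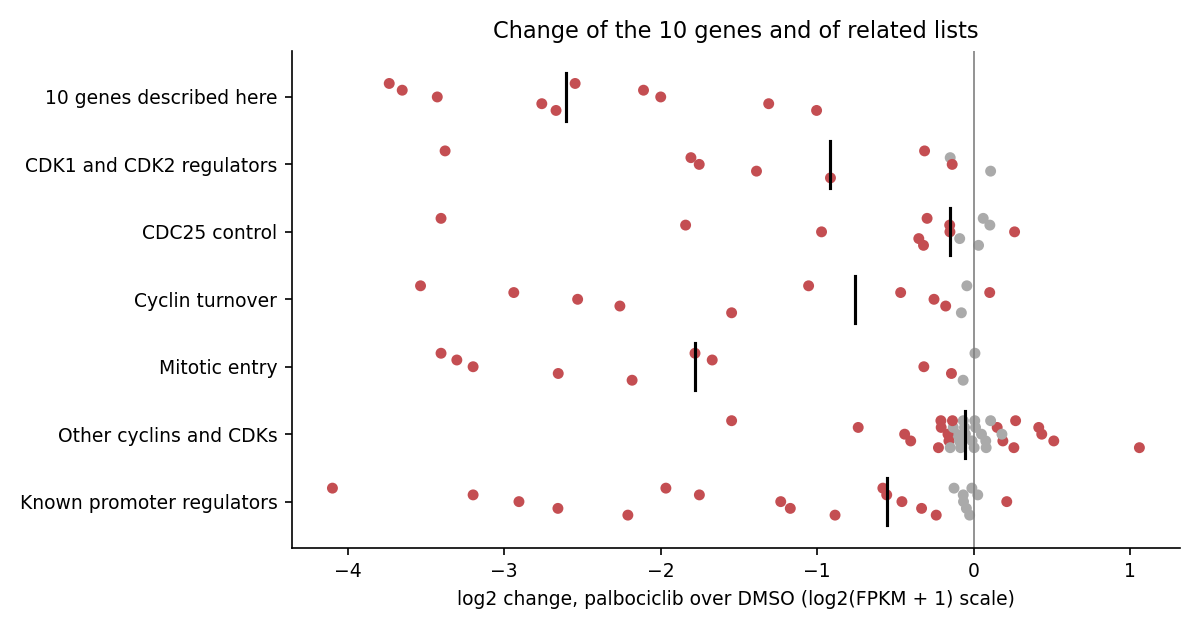
Limma log2 change of the 10 genes and of 6 related lists, with 1 point per gene, red where the adjusted p was under 0.05 and grey otherwise, and a black bar at the list's median. The medians run from -2.61 for the 10 genes to -0.05 for the other cyclins and kinases, where CCND1 is the point furthest to the right.

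Accessibility was read at the starts of the genes as ATAC counts per 1 M reads in peaks (CPM), with library totals scaled by TMM factors. Peaks within 1 kb of any of the genes' 17 RefSeq starts were taken. Of the 10 genes, 6 had such a peak, 7 peaks in all, and 5 of the 7 were lower with palbociclib in the edgeR quasi-likelihood test at an adjusted p under 0.05. Over all 38121 peaks 6.46% were lower, and over the 6411 peaks at the start of any gene 11.1%. The median log2 change was 0.00 over all peaks and -0.04 over peaks at any start. The 10 genes held 0 peaks inside their bodies further than 1 kb from a start. CCNE2, CCNB2, CDK2 and CDC25A had no peak within 1 kb, the nearest lying 51711, 33012, 8828 and 36159 bases away, so their starts are not analysed here for accessibility.

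The largest difference was at the downstream starts of CDC25B, in the peak chr20:3795676-3796669. Its CPM were 104, 100.7 and 114 in DMSO and 65.0, 61.2 and 64.2 with palbociclib. The groups were well apart, and the test gave a log2 difference of -0.74 (edgeR adjusted p 2.51e-16). The peak at the upstream start of CDC25B, chr20:3786702-3787014, which CENPB shares, measured 34.3, 36.5 and 37.2 CPM in DMSO and 34.1, 30.9 and 37.0 CPM with the drug. Those libraries overlapped, and the log2 change was -0.08 (edgeR adjusted p 0.537). The log2 ratio of the downstream to the upstream peak, a comparison chosen after these values were seen, was 1.56 ± 0.08 in DMSO and 0.90 ± 0.10 with palbociclib (SD, n = 3). The difference of -0.66 (SE 0.07) has an exact permutation p of 0.1, the smallest that 3 against 3 allow.

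At CCNA2, the peak chr4:121823318-121824309 measured 55.0, 53.8 and 58.1 CPM in DMSO and 41.5, 41.2 and 43.1 CPM with palbociclib. The groups did not overlap (log2 change -0.41, edgeR adjusted p 8.74e-06). At CDK1, the peak chr10:60778016-60778961 went from 141 ± 5.1 to 117 ± 2.8 CPM (SD, n = 3, log2 -0.27, edgeR adjusted p 5.17e-05). The CCNB1 peak chr5:69166672-69167445 went from 145.5 ± 5.8 to 124 ± 4.1 CPM (SD, n = 3, log2 -0.23, edgeR adjusted p 0.000548). At CDC25C the peak chr5:138331434-138332303, where LOC100128966 also starts, went from 177.5 ± 6.8 to 154 ± 6.8 CPM (SD, n = 3, log2 -0.20, edgeR adjusted p 0.00166). In each of these 3 the DMSO libraries were all above the palbociclib libraries.

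At CCNE1, the gene with the smallest fall in RNA, the peak chr19:29811396-29812029 measured 49.8, 54.2 and 48.9 CPM in DMSO and 52.4, 47.4 and 56.5 CPM with palbociclib. The groups overlapped and the log2 change was 0.03 (edgeR adjusted p 0.839). The fold changes in ATAC reads were smaller than those in RNA, though reads in a peak and RNA levels are different measures on different scales. CDK1, at 8.84% of its DMSO RNA level, had 1.21-fold fewer ATAC reads at its start, and CDC25B, at 21.3%, had 1.67-fold fewer at its downstream starts.

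**Figure D5:**
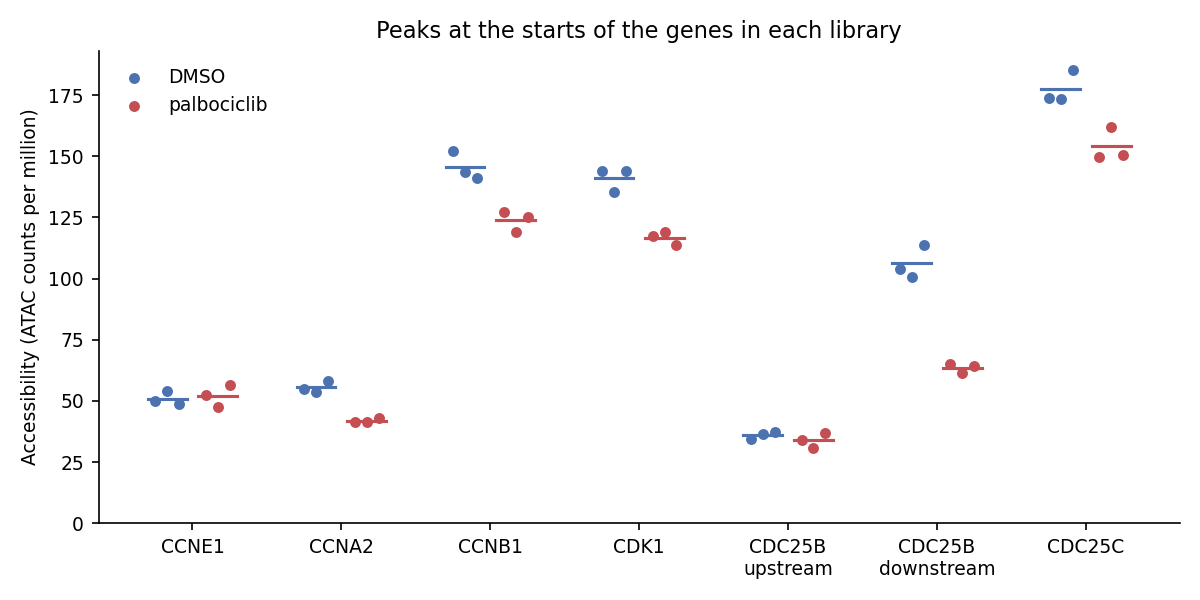
Accessibility in CPM of the 7 peaks at the starts of the 10 genes, per library, with group means as bars (DMSO and palbociclib, 3 libraries each). The downstream CDC25B peak goes from 106 to 63.5 CPM, while the 2 groups overlap at CCNE1 and at the upstream CDC25B start.

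The letters before the starts are given here to show which motifs these promoters hold, also for CCNB2 and CDC25A, which had no peak. The RefSeq promoter table of GRCh38.p14, with 250 bases before and 50 after each start, matched 8 of the 10 genes. CCNE2 and CDK2 were not in it. The sequences below run 5′ to 3′ on the strand of the gene, from 150 bases before the start to the base before it. For CDK1, CDC25B and CDC25C they cover 30 bases around a motif, which also lie after another listed start of the gene. Capitals mark the motifs, each searched on both strands. The box CCAAT reads ATTGG where it lies on the other strand of DNA. The GC box is GGGCGG, and capitals also mark its reverse complement. The cell cycle homology region was searched in a first form, TTTGAA, and in a second, which is TTCGAA. For E2F the forms searched were TTTCCCGC, then TTTGGCGC, and last TTTCGCGC. CCNE1 and CDC25A come first as genes of S phase entry, then the genes of S phase, G2 and mitosis.
CCNE1, chr19:29811841-29811990, plus strand: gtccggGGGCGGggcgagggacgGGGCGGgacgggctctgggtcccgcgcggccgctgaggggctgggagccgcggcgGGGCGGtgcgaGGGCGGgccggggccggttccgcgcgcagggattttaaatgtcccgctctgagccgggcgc
CDC25A, chr3:48188418-48188567, minus strand: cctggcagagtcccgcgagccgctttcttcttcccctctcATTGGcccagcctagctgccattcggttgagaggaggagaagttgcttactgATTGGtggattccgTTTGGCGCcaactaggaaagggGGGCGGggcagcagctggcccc
CCNA2, chr4:121823884-121824033, minus strand: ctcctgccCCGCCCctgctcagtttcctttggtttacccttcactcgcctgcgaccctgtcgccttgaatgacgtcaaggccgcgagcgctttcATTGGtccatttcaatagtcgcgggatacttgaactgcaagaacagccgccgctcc
CCNB1, chr5:69167000-69167149, plus strand: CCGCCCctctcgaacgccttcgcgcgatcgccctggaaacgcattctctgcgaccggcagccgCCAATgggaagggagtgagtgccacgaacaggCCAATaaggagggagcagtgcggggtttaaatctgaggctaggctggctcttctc
CCNB2, chr15:59104996-59105145, plus strand: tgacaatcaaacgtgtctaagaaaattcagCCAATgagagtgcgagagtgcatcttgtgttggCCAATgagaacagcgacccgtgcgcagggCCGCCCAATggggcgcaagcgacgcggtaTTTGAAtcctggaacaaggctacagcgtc
CDK1, chr10:60778448-60778477, plus strand: ccctttagcgcggtgagTTTGAAactgctc
CDC25B, chr20:3796260-3796289, plus strand: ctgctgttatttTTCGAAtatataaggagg
CDC25C, chr5:138331817-138331846, minus strand: gctggcggaaggTTTGAAtggtcaacgcct

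CCAAT was found in the 300-base windows of 7 of the 8 genes, all but CCNE1, beside 34.6% of the 35116 promoters in the table. The window of CCNB2 held 4 of them, at 244, 120, 87 and 54 bases before the start, and the last overlaps a GC box on the other strand. GGGCGG was found in all 8, beside 45% of promoters, with 7 copies in CCNE1 at 222 to 61 bases before its start. TTTGAA was found in CCNB2, CDK1 and CDC25C, 3 of 8 beside 15.2% of promoters, at 29 bases before the start of CCNB2 and 30 before the start of CDC25C at 138331804. The same CDC25C match lies after the start at 138331877, beginning at base 44 counted from it. TTCGAA was found in CDC25B alone, beside 1.45% of promoters. It lies 38 bases before the start at 3796310, within the peak that was lower with palbociclib. Either type was in 4 of 8 genes beside 16.4% of promoters.

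An E2F type motif was found in 2 of the 8 genes, TTTGGCGC in CDC25A at 44 bases before the start and TTTCGCGC in CDK1 at 128 bases before its start at 60778478, beside 2.74% of promoters with any of the 3 forms. TTTCCCGC was in 0 of the 8 windows. Genes with several starts had several windows, so a match had more chances there, and a match describes letters only. Only the exact forms given above were searched, so a gene without a match may still hold another form of the motif.

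Splicing was read for the same genes from inclusion and skipping read counts. The tables listed 58 events in 9 of the 10 genes, with 24 in CDC25C and 0 in CCNA2. Of these, 13 averaged 20 reads or more a library with 5% or more of them in the rarer form, and 0 of the 13 changed at an adjusted p under 0.05 in edgeR over all 37445 events tested, of which 0.355% changed. At an unadjusted p under 0.05 there were 3, and limma on the log2 odds of the 2 forms also gave 0 with an adjusted p under 0.05 and 3 unadjusted. Over all events 8.53% had an unadjusted p under 0.05. The treated libraries held few reads for most of the CDC25C events, which limits the difference that could be detected there.

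The tested event with the largest difference was the skipping of a 95-base exon of CDC25C, chr5:138329553-138329647. It was included at 54.0%, 58.4% and 59.5% in DMSO and at 56.1%, 23.9% and 31.9% with palbociclib (edgeR adjusted p 0.308). Inclusion reads in the treated libraries were 10, 16 and 11 and skipping reads 4, 26 and 12, and 1 treated library lay within the DMSO range. A 79-base exon of CDC25B, chr20:3802730-3802808, was included at 2.75% ± 1.4 in DMSO and 5.61% ± 1.1 with palbociclib (SD, n = 3, edgeR adjusted p 0.382). A retained intron event of CDK2, chr12:55966831-55967934, stood at 14.5% ± 1.5 and 17.5% ± 0.81 (SD, n = 3, edgeR adjusted p 0.590).

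The event of CCNE2 with the largest difference was listed as mutually exclusive exons, chr8:94890415-94890550 and chr8:94892818-94892969. Its share of the latter exon was 61.0% ± 1.7 in DMSO and 54.9% ± 18 with palbociclib (SD, n = 3, edgeR adjusted p 0.783). Listed as exons that can be skipped, however, these 2 were included at 99.9% and 99.6% in DMSO, and both at 100% with palbociclib. The share thus does not show that 1 exon replaces the other. For CDC25A an alternative 3′ splice site exon at chr3:48182929-48183030 had its longer form in 75.6% ± 2.1 and 70.6% ± 5.8 (SD, n = 3, edgeR adjusted p 0.926). For CCNE1 such an exon at chr19:29812969-29813037 stood at 90.9% ± 2.4 and 90.0% ± 5.9 (SD, n = 3, edgeR adjusted p 0.992). The spread of most of these shares was wider in the treated libraries, where the genes had fewer reads. The authors' deposited table lists 2 CDC25C events at an FDR under 0.05, the same 95-base exon with another upstream partner (FDR 0.0363) and an alternative 5′ splice site at chr5:138289480-138289563 (FDR 0.0421). Neither passed the filters here, and the first had 0 skipping reads in all 3 treated libraries.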

How the data were processed

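The 10 genes and the lists of related genes were chosen with earlier results of these data known. RNA values are FPKM deposited by the authors, 1 column per library. Per the submitters' processing notes, fastp 0.23.2, STAR 2.7.10b, Salmon 1.10.2, SAMtools 1.16 and DESeq2 1.44.0 were used for RNA with GRCh38, with no role given. The counting strand is not given in the sources used here. The authors' DESeq2 table, per the file headers, holds p-values, log2 changes with SE, a Wald score and a mean normalized count (a signal value). The authors' splicing tables, in the layout of rMATS, hold read counts of the 2 forms, inclusion levels, p-values and a difference of levels (a score). Per the file headers, featureCounts 2.0.6 gave the authors' ATAC counts over 1 peak set. The command asks for no read pairs, so counts are taken as reads.

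Tests were run in R 4.3.3. FPKM were tested with limma 3.58.1 with an intensity trend on log2(FPKM + 1), for genes with a mean of at least 0.5 FPKM. Peak counts were tested with the edgeR 4.0.16 quasi-likelihood test after TMM and filterByExpr, which removed 0 peaks. Splicing counts were tested with edgeR per event type, with terms for the libraries and for inclusion by treatment, and adjusted over all 5 types together. All tests are two-sided. The limma test and the edgeR tests of peaks and of splicing were also run on simulated data, with outcomes that are not given here. Positions and promoters are RefSeq GRCh38.p14, joined to the authors' peaks, whose build is GRCh38 per the submitters' processing notes.

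Named genes were the 10, per list up to 3 with the largest fall and 2 with the largest rise among called genes whose groups did not overlap, 1 nearest profile per gene, every peak at a start, and the tested splicing event with the largest difference per gene. WEE1, CDKN1A, CDKN1B, CDK7, CCNH and MNAT1 and the authors' 2 CDC25C events were named after their values were seen. Replicate numbers are not stated to pair the libraries. Deviations of same-numbered RNA libraries correlated at 0.11, -0.01 and 0.09, and of ATAC libraries at 0.01, 0.04 and -0.03. Between different numbers the values ran from -0.14 to 0.05 for RNA and from -0.07 to 0.06 for ATAC. With 3 libraries a group these values cannot exclude pairing, and the replicate block is used as an alternative only. Other alternatives were the pseudocount, the filters, the scaling, the test (DESeq2 1.42.0 for peaks) and leaving out each library. Of the cell type marker lists, 1 is not reported here.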

Additional observations from a re-analysis of the deposited data

How the results depend on the processing

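All 10 genes stayed lower in each of the 13 RNA alternatives, 5 peaks in each of the 14 ATAC alternatives and 0 splicing events changed in each of the 10 splicing alternatives, the fits with a replicate block among them (10 genes, 5 peaks, 0 events). The lowest and highest log2 changes over the settings were -3.38 and -2.45 for CDC25C, -2.61 and -1.90 for CDC25A and -1.25 and -0.91 for CCNE1. The CDC25A to CDC25B ratio had the opposite sign, 0.11, with 1 FPKM added. With the replicate block the smallest exact p of a pair ratio is 0.25. Counts of higher genes were 1 for CDK1 and CDK2 regulators and 3 for CDC25 control, each under quantile normalization and under median centring, and 2 for CDC25 control with edgeR on rebuilt counts. Median centring also gave 2 higher promoter regulators and 5 lower other cyclins and kinases. For cyclin turnover the count of higher genes was 0 without the trend and ranged from 0 to 1 when a replicate was left out. The cause of these shifts was not tested. Low FPKM of CDC25A and CDC25C with palbociclib and few splicing reads limit those values.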
